A study of Mus musculus with 12 samples.

Results

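Stefins and cystatins are small proteins that block cysteine proteases, and 8 of their mouse genes were followed here over 12 arrays. The genes were Stfa1, Stfa2, Stfa3, Stfa2l1 and Csta1 of the stefin A cluster, Cstb for stefin B, Cst3 for cystatin C and Cst7 for cystatin F. They were found by gene symbol in the platform annotation, which gave 7 probe sets for 6 of the 8 genes among 45141 probe sets and 17097 genes with a single symbol. Stfa1 and Stfa2 had no probe set under their symbol and were not analysed here, and 0 probe sets with several symbols named a stefin. Of the 7 probe sets, 6 passed the filter on dim values, for 5 genes.

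The arrays fell into 4 groups of 3. The Ts1Cje Trib1 and B6 Trib1 groups were cell lines of acute myeloid leukaemia (AML) that express Trib1, named Ts1Cje + Trib1 WT and B6 + Trib1 WT by the submitters. The Ts1Cje and B6 groups were hematopoietic cells without Trib1, and the B6 cells were labelled wild type. Ts1Cje mice carry an extra copy of the distal part of chromosome 16 and serve as a model of Down syndrome, and Trib1 is a pseudokinase that drives AML in mice. All 4 groups were grown with the cytokine IL-3 at 5 ng/ml in medium holding 10% serum, and 100 ng of total RNA was used per labelling. The labels give no age, no sorting marker, no promoter or vector for Trib1, and no statement of whether the 3 arrays of a group came from separate mice, lines or cultures. A standard error or p-value therefore reflects how far these arrays differ from each other, and that may be a technical spread. Trib1 expression and leukaemic state went together, so their contributions cannot be told apart, and in bulk RNA fewer cells of a type and less RNA per cell cannot be told apart either.

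Papain-like cysteine proteases, the cathepsins, break down proteins in lysosomes and in the granules of myeloid cells. Stefins lie in the cytosol and catch cathepsins that leak from lysosomes, whereas cystatin C is secreted and cystatin F is carried to lysosomes, where in mice it restrains cathepsin C, the enzyme that activates granule serine proteases. In the mouse the stefin A gene has multiplied into a cluster on chromosome 16, and its members are known as genes of granulocytes and other myeloid cells.

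In B6 cells without Trib1 the probe sets of Stfa3 and Stfa2l1 were lower than in the other 3 groups. Stfa3 was nearly dim in B6 cells, with a mean of 28.8, whereas Stfa2l1 averaged 254 there. Csta1 was dim on every array. Cystatin F was ordered with the lines above the cells and, within each, Ts1Cje above B6. Stefin B ran the other way between lines and cells. Cystatin C differed least. The genes were chosen by symbol, from a family picked with the intensities of these 12 arrays and the differences between the 4 groups known, so their values are described without a test.

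The stefin A windows around the transcription start are shown first, because Stfa3 and Stfa2l1 differed most between the groups among the genes measured here. Both are 300-base RefSeq windows of mouse assembly GRCm38.p6, with 250 bases before the start and 50 after it, written 5′ to 3′ along the gene. The Stfa3 window is chr16:36455343-36455642 on the minus strand, and the Stfa2l1 window is chr16:36156561-36156860 on the plus strand. Capitals mark the 7 runs of at least 10 bases that the Stfa1, Stfa2, Stfa3 and Stfa2l1 windows all hold, 88 bases in each.
Stfa3: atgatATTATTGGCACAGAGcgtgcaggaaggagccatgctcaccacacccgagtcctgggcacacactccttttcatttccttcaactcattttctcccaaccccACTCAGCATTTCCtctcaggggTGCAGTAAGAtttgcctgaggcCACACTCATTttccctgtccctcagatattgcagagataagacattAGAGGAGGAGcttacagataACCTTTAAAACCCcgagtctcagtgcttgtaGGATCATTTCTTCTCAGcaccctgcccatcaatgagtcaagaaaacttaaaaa
Stfa2l1: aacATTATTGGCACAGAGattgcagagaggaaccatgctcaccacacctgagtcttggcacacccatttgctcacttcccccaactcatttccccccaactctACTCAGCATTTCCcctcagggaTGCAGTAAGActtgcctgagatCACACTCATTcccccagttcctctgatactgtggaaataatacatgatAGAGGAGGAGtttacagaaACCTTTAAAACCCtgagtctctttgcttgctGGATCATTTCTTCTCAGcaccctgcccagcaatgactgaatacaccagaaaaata

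In a global alignment the Stfa3 and Stfa2l1 windows were identical at 81.0% of columns, and the closest pair was Stfa2 and Stfa2l1 at 90.5%. Pairs within the group of Stfa1, Stfa2, Stfa3 and Stfa2l1 had at least 79.2% identity. The Csta1, Cst3 and Cst7 windows shared at most 50.1% with any other of these windows. The longest shared run, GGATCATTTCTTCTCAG, has 17 bases and begins at position -3 from the start in Stfa3 and at -5 in Stfa2l1. The C/EBP motif TTGCNNAA, searched on both strands, had 0 matches in the Stfa3 and Stfa2l1 windows and 1 match each in those of Stfa1 and Cst7, and 10.8% of 32851 promoter windows hold it. The PU.1 motif GAGGAA had 1 match each in Stfa3, Stfa1, Stfa2 and Cst3, 2 each in Stfa2l1 and Csta1 and 0 in Cst7, and 28.3% of windows hold it. Matches to the 2 motifs did not overlap in these windows. The transcripts of stefin A genes are known to be alike, and whether a probe set named for one of them also binds RNA of another was not tested.

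Stfa3, a stefin A of the cluster (probe set 1419709_PM_at), had intensities of 307, 308 and 315 in the Ts1Cje Trib1 lines, 320, 324 and 373 in the B6 Trib1 lines, 223, 194 and 187 in Ts1Cje cells, and 31.8, 27.7 and 27.0 in B6 cells. The B6 cells were low on every array, close to the cutoff for dim probe sets of 22.0 to 23.5, and no 2 groups overlapped. Means were 309.6 ± 4.48 in Ts1Cje Trib1, 338.9 ± 29.4 in B6 Trib1, 201.4 ± 18.7 in Ts1Cje and 28.8 ± 2.59 in B6 (SD, n = 3 each). In the ratio of mean intensities, Ts1Cje cells stood 6.99-fold above B6 cells and B6 Trib1 lines 11.8-fold above B6 cells, and Ts1Cje Trib1 lines 1.54-fold above Ts1Cje cells. Between the lines the ratio of Ts1Cje Trib1 to B6 Trib1 was 0.914. Differences of log2(intensity + 15), where 15 damps the noise of dim values, were 2.30 for Ts1Cje minus B6, 3.01 for B6 Trib1 minus B6 and 0.59 for Ts1Cje Trib1 minus Ts1Cje (standard error 0.07 each). For Ts1Cje Trib1 minus B6 Trib1 it was -0.12 ± 0.07 (standard error), and without the third B6 Trib1 array it was -0.05.

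Stfa2l1, a gene of the cluster named for its likeness to stefin A2 (1442339_PM_at), had intensities of 836, 860 and 756 in Ts1Cje Trib1, 936, 950 and 1178 in B6 Trib1, 938, 833 and 772 in Ts1Cje, and 248, 254 and 260 in B6. The B6 cells again stood apart on every array, while the Ts1Cje Trib1 lines and the Ts1Cje cells overlapped. Ts1Cje cells overlapped the B6 Trib1 lines as well. Means were 817 ± 54.2, 1021 ± 136, 848 ± 84.2 and 254 ± 5.93 in Ts1Cje Trib1, B6 Trib1, Ts1Cje and B6 (SD, n = 3 each). The ratio was 3.34 for Ts1Cje over B6 cells and 4.02 for B6 Trib1 lines over B6 cells. It was 0.800 for Ts1Cje Trib1 over B6 Trib1 lines and 0.964 for Ts1Cje Trib1 lines over Ts1Cje cells. The log2 differences were 1.68, 1.94, -0.31 and -0.05 in that order, each with a standard error of 0.09. The third B6 Trib1 array was the highest of its group for both genes, and without it the log2 difference of Stfa2l1 between the lines was -0.20.

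Csta1, the cluster's gene named for cystatin A (1435760_PM_at), lay between 10.2 and 11.8 on the 12 arrays and did not exceed the cutoff on any of them. Its means were 10.9 ± 0.297 in Ts1Cje Trib1, 11.6 ± 0.372 in B6 Trib1, 11.4 ± 0.343 in Ts1Cje and 10.5 ± 0.244 in B6 (SD, n = 3 each). At this level no order can be read between the groups.

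**Figure D1:**
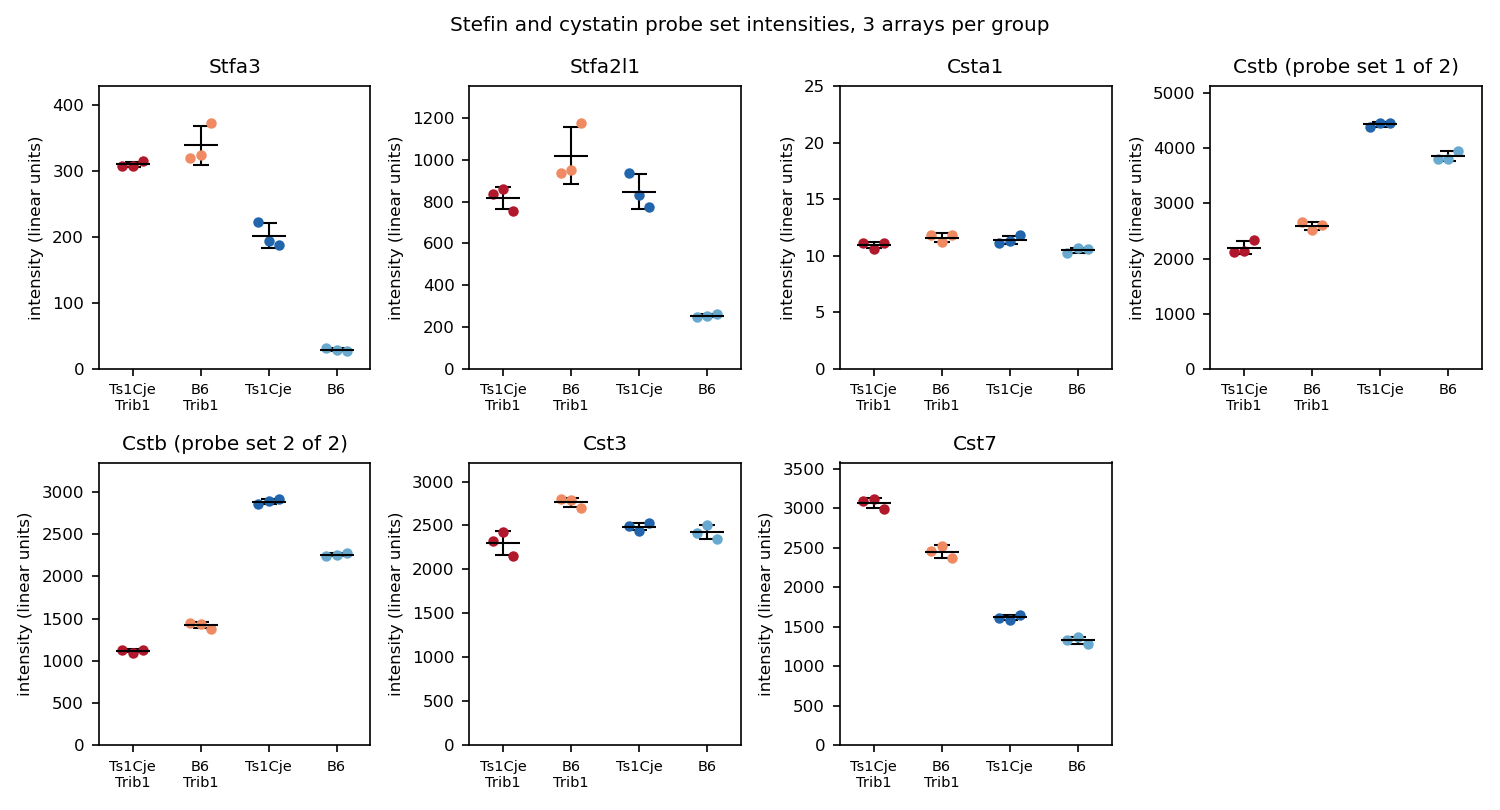
Intensity on the deposited linear scale (vertical axis, starting at 0) of each of the 7 probe sets on each array, in groups of 3 points from left to right for Ts1Cje Trib1, B6 Trib1, Ts1Cje and B6; the black bars are the mean and SD. B6 cells are lowest for Stfa3 (28.8 ± 2.59) and Stfa2l1 (254 ± 5.93), the lines are lowest for both Cstb probe sets, and Cst7 is ordered with no overlap.

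Stefin B is the widely expressed cytosolic stefin, and loss of its human gene causes a progressive myoclonus epilepsy. The Cstb probe set 1422506_PM_a_at had intensities of 2125, 2134 and 2334 in Ts1Cje Trib1, 2668, 2525 and 2600 in B6 Trib1, 4388, 4466 and 4462 in Ts1Cje, and 3812, 3815 and 3959 in B6. The second Cstb probe set, 1422507_PM_at, had 1122, 1097 and 1133 in Ts1Cje Trib1, 1442, 1439 and 1376 in B6 Trib1, 2853, 2893 and 2914 in Ts1Cje, and 2241, 2260 and 2273 in B6. Both probe sets ordered the groups alike, with Ts1Cje cells highest, then B6 cells, B6 Trib1 lines and Ts1Cje Trib1 lines, and no neighbours in that order overlapped. The log2 difference for Ts1Cje minus B6 was 0.20 in the first probe set and 0.35 in the second, and for Ts1Cje Trib1 minus B6 Trib1 it was -0.24 and -0.34. For Ts1Cje Trib1 minus Ts1Cje it was -1.01 and -1.36, and for B6 Trib1 minus B6 it was -0.57 and -0.66 (standard errors 0.04 and 0.03). Cstb thus had its higher genotype level in Ts1Cje among cells and in B6 among lines. Cstb lies on chromosome 10 in the mouse, outside the segment that Ts1Cje mice carry in extra copy.

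Cystatin C is a secreted inhibitor that is abundant in macrophages and dendritic cells. Cst3 (1426195_PM_a_at) had intensities of 2318, 2421 and 2148 in Ts1Cje Trib1, 2797, 2791 and 2704 in B6 Trib1, 2493, 2442 and 2523 in Ts1Cje, and 2411, 2506 and 2348 in B6. The B6 Trib1 lines were highest on every array. Ts1Cje and B6 cells overlapped, and so did B6 cells and the Ts1Cje Trib1 lines. The group means spanned 0.27 on the log2 scale, and the log2 differences were -0.27 for Ts1Cje Trib1 minus B6 Trib1, -0.12 for Ts1Cje Trib1 minus Ts1Cje, 0.19 for B6 Trib1 minus B6 and 0.04 for Ts1Cje minus B6 (standard error 0.04 each). Without the third Ts1Cje Trib1 array, the lowest of the 12, the difference of Ts1Cje Trib1 lines from Ts1Cje cells was -0.07.

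Of the dendritic cell markers, 4 of 7 were measured, and their summed intensity was 242.9 to 294.4 in Ts1Cje Trib1, 318.1 to 322.8 in B6 Trib1, 727 to 769.4 in Ts1Cje and 675.6 to 767.1 in B6. All 4 were above the cutoff on at least 1 array of each group. Cst3 did not follow them, since its highest group was one of the 2 with low sums.

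Cystatin F is made by cytotoxic lymphocytes, mast cells and other blood cells. Cst7 (1419202_PM_at) had intensities of 3090, 3111 and 2992 in Ts1Cje Trib1, 2461, 2520 and 2364 in B6 Trib1, 1611, 1589 and 1647 in Ts1Cje, and 1332, 1367 and 1281 in B6. The 4 groups were fully ordered, with no overlap between neighbours. The means were 3064 ± 63.8, 2448 ± 79.0, 1616 ± 29.6 and 1327 ± 43.3 in Ts1Cje Trib1, B6 Trib1, Ts1Cje and B6 (SD, n = 3 each). The log2 difference was 0.92 for Ts1Cje Trib1 minus Ts1Cje and 0.88 for B6 Trib1 minus B6. Genotype gave 0.32 between the lines and 0.28 between the cells (standard error 0.03 each). The difference between those genotype differences was 0.04 ± 0.05 (standard error), the smallest in size among the 6 probe sets.

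All 6 measured markers of mast cells and basophils rose in both lines against cells of the same genotype, while of the 7 cytotoxic lymphocyte markers 4 rose and 2 fell. Of all genes, 34.1% rose in either line, and 31.1% fell in B6 Trib1 lines and 26.8% in Ts1Cje Trib1 lines. For the 6 of 7 mast cell and basophil markers measured, the summed intensity was 21287 to 21976 in Ts1Cje Trib1, 18777 to 19028 in B6 Trib1, 4682 to 4952 in Ts1Cje and 2839 to 2885 in B6. In Ts1Cje against B6 cells 5 of these markers rose and 0 fell, where 23.3% of all genes rose and 29.3% fell. Between the Ts1Cje Trib1 and B6 Trib1 lines 3 rose and 2 fell, where 11.9% of all genes rose and 9.63% fell. Among those that rose there were Fcer1a (log2 difference 0.92, limma adjusted p = 5.14e-08) and Ms4a2 (0.49, limma adjusted p = 2.07e-07). Those that fell were Mcpt8 (-0.19, limma adjusted p = 0.00434) and Hdc (-0.51, limma adjusted p = 2.92e-06). Cst7 was higher in Ts1Cje Trib1. For the 7 cytotoxic markers the summed intensity was 10397 to 10878, 9266 to 9552, 1741 to 1788 and 1618 to 1691 in Ts1Cje Trib1, B6 Trib1, Ts1Cje and B6. The mast cell and the cytotoxic sums both ranked the groups as Cst7 did. Single cytotoxic markers did not all do so. Of the 7, 2 rose and 3 fell in Ts1Cje against B6 cells, where 23.3% of all genes rose and 29.3% fell. Between the Ts1Cje Trib1 and B6 Trib1 lines 1 rose and 0 fell, where 11.9% of all genes rose and 9.63% fell. Gzmb, for granzyme B, made up most of the cytotoxic sum in the lines, at 7613 ± 246 in Ts1Cje Trib1 and 6955 ± 131 in B6 Trib1. Klrd1, for a receptor of natural killer cells, fell by 1.65 in Ts1Cje Trib1 lines against Ts1Cje cells (limma adjusted p = 2.12e-09) and fell by 2.10 in B6 Trib1 lines against B6 cells (limma adjusted p = 2.73e-10). The part of such cells or programs in the Cst7 values was not tested.

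**Figure D2:**
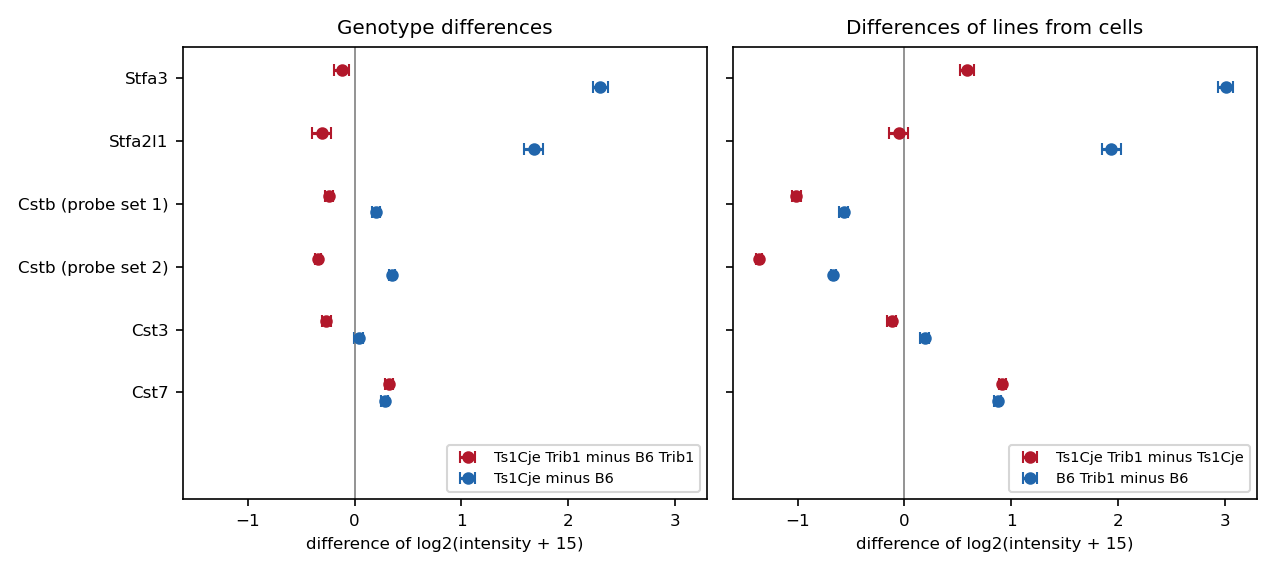
Difference of log2(intensity + 15) (horizontal axis) for the 6 probe sets past the filter, with bars of 1 standard error; red points are the contrasts of the Ts1Cje Trib1 lines, with B6 Trib1 at left and with Ts1Cje cells at right, and blue points are Ts1Cje minus B6 at left and B6 Trib1 minus B6 at right. Stfa3 and Stfa2l1 stand at 2.30 and 1.68 for Ts1Cje minus B6 and at -0.12 and -0.31 between the lines, whereas the 2 genotype differences of Cst7 nearly coincide.

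Set side by side, 5 of the 6 probe sets were higher in Ts1Cje than in B6 cells with no overlap between the groups, 0 were lower and 1 overlapped. Of all 12560 genes tested, 60.3% had no overlap in that comparison. Between the Ts1Cje Trib1 and B6 Trib1 lines 1 probe set was higher and 5 were lower without overlap, against 36.4% of all genes. For B6 Trib1 lines against B6 cells 4 were higher and 2 lower, against 72.6% of all genes, and for Ts1Cje Trib1 lines against Ts1Cje cells 2 were higher, 3 lower and 1 overlapped, against 64.3%. The genes were chosen with these values known, so nothing is read from the counts. Pairs of these comparisons share a group, and their values are given side by side for that reason.

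The genotype difference in the lines minus that in the cells was -2.42 for Stfa3, -1.99 for Stfa2l1, -0.44 and -0.69 for the Cstb probe sets and -0.31 for Cst3, all on the log2 scale. For the 2 stefin A genes and for Cstb, every array placed Ts1Cje above B6 among cells and Ts1Cje Trib1 below B6 Trib1 among lines. The difference between the lines was small for Stfa3, at -0.12 ± 0.07 (standard error). Of the 8 neutrophil granule markers, 7 rose and 1 fell in Ts1Cje against B6 cells, where 23.3% of all genes rose and 29.3% fell. All 8 fell in Ts1Cje Trib1 against B6 Trib1 lines, where 11.9% of all genes rose and 9.63% fell. Mmp9, for a granule gelatinase, fell in both (log2 difference -0.42 in cells, limma adjusted p = 0.000460, and -0.33 between the lines, limma adjusted p = 0.00626). The summed intensity of all 8 was 7460 to 7664 in Ts1Cje Trib1, 14279 to 14396 in B6 Trib1, 29724 to 30220 in Ts1Cje and 18070 to 18143 in B6. Those sums were lower in both lines than in the cells of the same genotype. By gene, 1 of the 8 rose and 6 fell in B6 Trib1 lines against B6 cells, where 34.1% of all genes rose and 31.1% fell. In Ts1Cje Trib1 lines against Ts1Cje cells 0 rose and 8 fell, where 34.1% of all genes rose and 26.8% fell. In these comparisons Stfa3 was higher in both lines and both Cstb probe sets were lower in both. Stfa2l1 was higher in B6 Trib1 lines and overlapped between Ts1Cje Trib1 lines and Ts1Cje cells. For the 7 of 8 monocyte and macrophage markers measured the sums were 2139 to 2142, 3606 to 3771, 7149 to 7465 and 4496 to 4569 in Ts1Cje Trib1, B6 Trib1, Ts1Cje and B6. The neutrophil and the monocyte sums both ranked the groups as the Cstb probe sets did, from Ts1Cje cells down to Ts1Cje Trib1 lines. Single monocyte markers did not all do so. Of the 7, 3 rose (Ccr2, Cd14 and Adgre1) and 4 fell in B6 Trib1 lines against B6 cells. In Ts1Cje Trib1 lines against Ts1Cje cells 1 rose and 6 fell. In Ts1Cje against B6 cells 6 rose and 1 fell, and between the lines 1 rose and 5 fell. The shares of all genes are those given above. All of the measured neutrophil and monocyte markers were above the cutoff in each group, and their part in the stefin values was not tested.

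B cell markers were highest in B6 cells, lower in Ts1Cje cells and lowest in the lines. The 5 of 6 measured summed to 128.7 to 142.2 in Ts1Cje Trib1, 117.1 to 141.7 in B6 Trib1, 945.9 to 1059 in Ts1Cje and 3026 to 3169 in B6. Ebf1, a defining B cell factor, was not above the cutoff on any array of either line. Pax5, another, lay near the cutoff in all 4 groups, with means of 22.0, 23.1, 22.5 and 23.1 in Ts1Cje Trib1, B6 Trib1, Ts1Cje and B6. The part of B cell content in the lower stefin A values of the B6 cells was not tested.

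The stefin A cluster runs over 12 protein-coding genes from Csta1 to Stfa3 on chromosome 16 in the RefSeq annotation, and 3 of them were tested. It lies before Sod1 in the order of the chromosome, with 263 protein-coding genes between, and Sod1 is at the near edge of the segment tripled in Ts1Cje. The third tested gene, Csta2, was dim, at 38.0 ± 1.44, 31.6 ± 3.14, 28.9 ± 2.47 and 23.7 ± 1.43 in Ts1Cje Trib1, B6 Trib1, Ts1Cje and B6 (SD, n = 3 each). In limma's test across all genes Csta2 rose in each pairwise comparison, by 0.18 in Ts1Cje over B6 cells (adjusted p = 0.0158), 0.19 in Ts1Cje Trib1 over B6 Trib1 lines (adjusted p = 0.0286), 0.27 in B6 Trib1 lines over B6 cells (adjusted p = 0.000938) and 0.27 in Ts1Cje Trib1 lines over Ts1Cje cells (adjusted p = 0.000668).

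The 3 nearest tested genes on each side, a choice made after values were seen, showed no like difference. For Ts1Cje minus B6 the log2 difference was -0.16 for Wdr5b (limma adjusted p = 0.0662), 0.03 for Fam162a (0.551) and -0.21 for Ccdc58 (0.0244) before the cluster. After it the log2 difference was 0.11 for Casr (limma adjusted p = 0.0506), -0.17 for Cd86 (0.112) and -0.52 for Slc15a2 (1.15e-05). Cd86, a costimulatory receptor of antigen-presenting cells, was the neighbour that differed most in the lines. Cd86 fell by 1.40 in B6 Trib1 lines against B6 cells (limma adjusted p = 7.61e-09) and fell by 1.29 in Ts1Cje Trib1 lines against Ts1Cje cells (limma adjusted p = 1.25e-08). Stfa3 differed in the opposite direction in both.

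**Figure D3:**
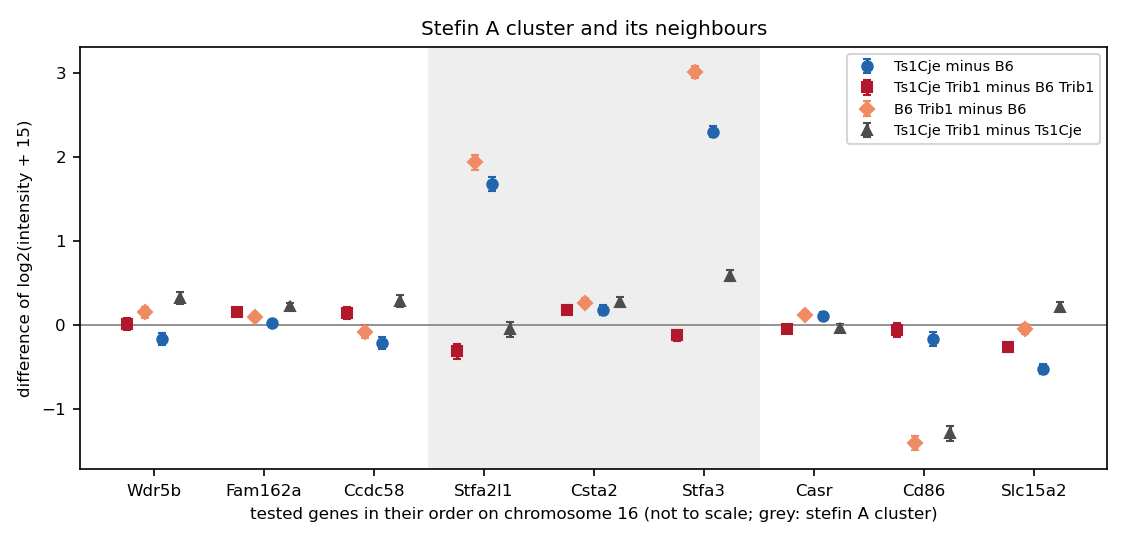
Difference of log2(intensity + 15) (vertical axis) with bars of 1 standard error for tested genes in their order along chromosome 16, not to scale, in 4 comparisons; grey marks the stefin A cluster. Stfa2l1 and Stfa3 reach 1.94 and 3.01 for B6 Trib1 minus B6, and 6 neighbouring genes lie between -1.40 and 0.33.

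Genes with a pattern most like each stefin or cystatin were sought among 1577 other genes whose group means spanned at least 1 log2 unit. Likeness was Pearson's r of log2 values over the 12 arrays, which fall into 4 groups, so r describes mainly the 4 group means. Nearest to Stfa3 were Selenbp1 (r = 0.994), which encodes a selenium-binding protein, Pstpip2 (r = 0.991), an adaptor whose loss causes autoinflammatory bone disease in mice, and Abtb1 (r = 0.983). Stfa2l1 had r = 0.976 with Stfa3, and nearest to it among other genes were Selenbp1 (r = 0.973), Pilrb1 (r = 0.960) and Abtb1 (r = 0.956). Pstpip2 had mean intensities of 669 ± 5.17 in Ts1Cje Trib1, 701 ± 10.96 in B6 Trib1, 512 ± 12.2 in Ts1Cje and 271 ± 6.97 in B6 (SD, n = 3 each), the group order of Stfa3 with a smaller span.

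Nearest to Cstb were Bach1 (r = 0.998), a repressor that senses heme, Snx9 (r = 0.997) and Atrnl1 (r = 0.997). Bach1 averaged 517 ± 34.6 in Ts1Cje Trib1, 622 ± 26.3 in B6 Trib1, 1113 ± 14.3 in Ts1Cje and 939.8 ± 17.3 in B6 (SD, n = 3 each). Cst7 was followed most closely by Dtx4, Tmbim4 and Tmem51 (r = 0.995 each). Cst3 had no near match among the genes searched. The highest were Lpl (r = 0.795), for lipoprotein lipase, Prg2 (r = 0.794), for eosinophil major basic protein, and Tlr2 (r = 0.730). The group means of Cst3 spanned 0.27, and genes with so small a span were left out of the search. Between Cst7 and Cstb r was -0.92.

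A list of proteases, 10 cysteine cathepsins and the lysosomal protease legumain, was tested with limma across all 12560 genes, and all 11 proteases were measured. Which of them each stefin or cystatin binds was not tested. The protease list was chosen with earlier results of these data known, so its counts and medians are given as description. In the lines the proteases were mostly lower. Of the 11, 0 rose and 8 fell in B6 Trib1 lines against B6 cells (median log2 difference -0.92, against 0.03 over all genes), where 34.1% of all genes rose and 31.1% fell. In Ts1Cje Trib1 lines against Ts1Cje cells 1 rose and 9 fell (median -2.01, against 0.02), where 34.1% of all genes rose and 26.8% fell.

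Legumain, a lysosomal protease that cuts after asparagine, had the lowest adjusted p of the list in both. Lgmn averaged 68.0 ± 5.21 in Ts1Cje Trib1, 102 ± 3.13 in B6 Trib1, 1951 ± 69.8 in Ts1Cje and 1306 ± 18.1 in B6 (SD, n = 3 each). It fell by 3.49 in B6 Trib1 lines against B6 cells (limma adjusted p = 1.63e-15) and fell by 4.57 in Ts1Cje Trib1 lines against Ts1Cje cells (limma adjusted p = 1.13e-16). Ctsl, for the broadly expressed cathepsin L, averaged 796 ± 7.61 in Ts1Cje Trib1, 806 ± 29.1 in B6 Trib1, 5048 ± 101 in Ts1Cje and 4830 ± 70.1 in B6. Ctsl fell by 2.56 in B6 Trib1 lines against B6 cells (limma adjusted p = 2.62e-15) and fell by 2.64 in Ts1Cje Trib1 lines against Ts1Cje cells (limma adjusted p = 1.13e-15). The test of the difference between these did not pass (-0.08 ± 0.05, standard error, limma adjusted p = 0.208). Ctsw, for cathepsin W of cytotoxic lymphocytes, was the 1 gene of the list that rose, by 1.25 in Ts1Cje Trib1 lines against Ts1Cje cells (limma adjusted p = 7.26e-11).

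Ctsc encodes the cathepsin that cystatin F restrains. It averaged 3229 ± 61.7 in Ts1Cje Trib1, 3429 ± 51.2 in B6 Trib1, 4480 ± 95.1 in Ts1Cje and 3269 ± 54.6 in B6 (SD, n = 3 each). Ctsc fell by 0.47 in Ts1Cje Trib1 lines against Ts1Cje cells (limma adjusted p = 3.69e-08), and in B6 Trib1 lines against B6 cells its log2 difference was 0.07 (limma adjusted p = 0.0959). That second value passed the test with quantile normalization, at 0.12 (limma adjusted p = 0.0119), and with the mean of its probe sets, at 0.36 (limma adjusted p = 2.48e-05). With the mean of its probe sets Ctsc also passed in Ts1Cje Trib1 against B6 Trib1 lines, at -0.49 (limma adjusted p = 7.54e-06, against -0.09 and 0.0987 for the brightest probe set), and its interaction was -1.01, against -0.54.

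Between genotypes the direction differed in cells and in lines for several proteases. Of the 11, 6 rose and 2 fell in the comparison of Ts1Cje with B6 cells (median 0.19, against 0.01 over all genes), where 23.3% of all genes rose and 29.3% fell. Comparing Ts1Cje Trib1 with B6 Trib1 lines, 1 rose and 5 fell (median -0.13, against 0.00), where 11.9% of all genes rose and 9.63% fell. Ctsh, for an aminopeptidase of lysosomes, averaged 122 ± 4.24 in Ts1Cje Trib1, 268 ± 10.8 in B6 Trib1, 1522 ± 21.9 in Ts1Cje and 1127 ± 9.13 in B6. Ctsh rose by 0.43 in Ts1Cje over B6 cells (limma adjusted p = 1.20e-06) and fell by 1.04 between the lines, Ts1Cje Trib1 against B6 Trib1 (limma adjusted p = 4.56e-10). Ctss, for the cathepsin that trims the invariant chain in antigen presentation, averaged 839 ± 62.0 in Ts1Cje Trib1, 1757 ± 8.71 in B6 Trib1, 3851 ± 139 in Ts1Cje and 3340 ± 57.0 in B6. It rose by 0.20 in Ts1Cje over B6 cells (limma adjusted p = 0.00346) and fell by 1.05 between these lines (limma adjusted p = 4.21e-09).

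The interaction, which is the genotype difference in the lines minus that in the cells, passed for 9 of the 11, with 2 above 0 and 7 below (median -0.41, against 0.01 over all genes). Over all genes 28.4% passed above 0 and 20.2% below. It was -1.47 for Ctsh (limma adjusted p = 2.72e-10), -1.26 for Ctss (limma adjusted p = 1.12e-08) and 1.35 for Ctsw (limma adjusted p = 1.01e-08). Ctsf passed it narrowly (-0.26, limma adjusted p = 0.0499) and lost the call in 15 of 19 alternatives, with adjusted p between 0.00361 and 0.777.

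**Figure D4:**
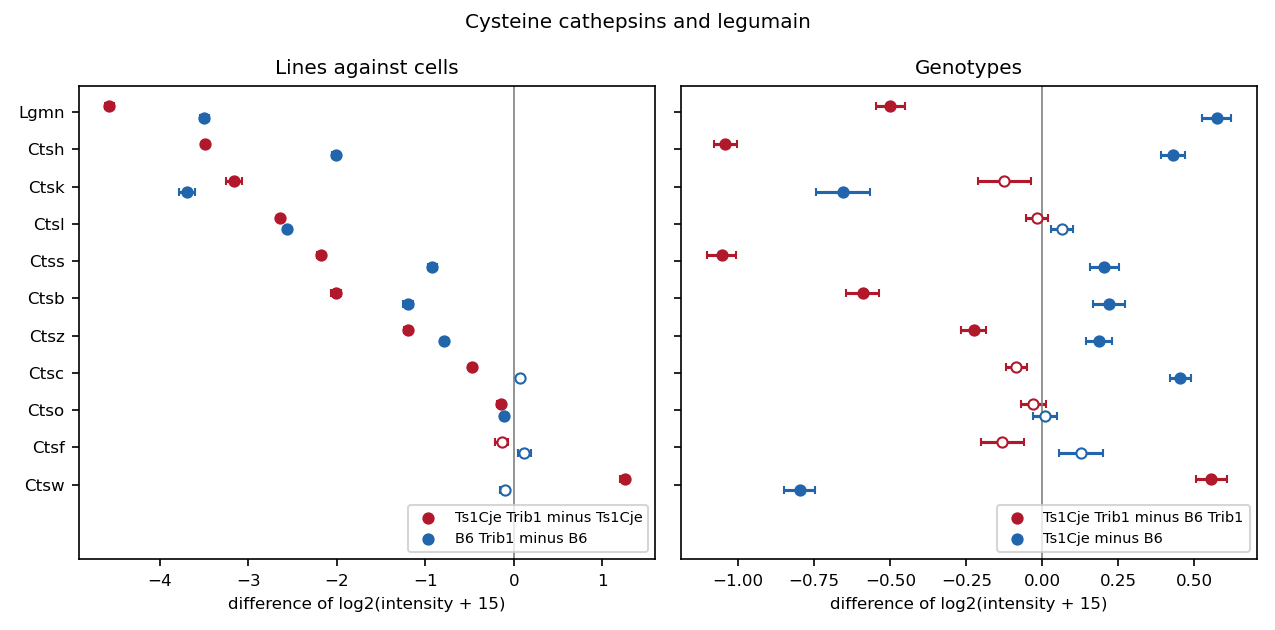
Difference of log2(intensity + 15) (horizontal axis) with bars of 1 standard error for the 11 proteases, lines against cells at left and Ts1Cje against B6 genotypes at right; filled points passed limma's test and open points did not. Lgmn is lowest at left (-4.57 and -3.49), and at right Ctsh and Ctss stand above 0 for Ts1Cje minus B6 and below -1 for Ts1Cje Trib1 minus B6 Trib1.

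Among 16 other genes with a cystatin domain, 12 had a symbol on the array and 3 passed the filter, of which 2 encode neutrophil granule proteins. Camp, for the antimicrobial cathelicidin, averaged 284 ± 26.1 in Ts1Cje Trib1, 942 ± 33.7 in B6 Trib1, 4044 ± 114 in Ts1Cje and 1947 ± 35.0 in B6 (SD, n = 3 each). Camp rose by 1.05 in Ts1Cje over B6 cells (limma adjusted p = 9.00e-09) and fell by 1.68 in the Ts1Cje Trib1 lines relative to B6 Trib1 (limma adjusted p = 1.71e-10). Ngp, for neutrophilic granule protein, averaged 3915 ± 91.7, 5479 ± 98.1, 8049 ± 86.1 and 5157 ± 90.9 in Ts1Cje Trib1, B6 Trib1, Ts1Cje and B6, and the Ts1Cje value lay near the highest intensity of any probe set on an array, 8041 to 8685. Ngp rose by 0.64 in Ts1Cje over B6 cells (limma adjusted p = 1.03e-08) and fell by 0.48 in the Ts1Cje Trib1 lines relative to B6 Trib1 (limma adjusted p = 2.89e-07). Hrg, for a plasma glycoprotein of the liver, was dim, at 19.5 to 25.8 in the group means.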

How the data were processed

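Total RNA of 12 samples was measured on Affymetrix mouse arrays with perfect-match probes, 1 array per sample. The deposited values were linear intensities per probe set, made with MAS5 per the submitters' processing notes; MAS5 uses mismatch probes, which these arrays lack, and how the values were summarised and scaled is not given in the sources used here. Array medians lay between 30.5 and 32.0, and the values were used on the deposited scale. Gene names came from the platform annotation (28898 probe sets with 1 symbol, 551 with several, 15588 with none, 104 controls).

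Probe sets above the array's 40th percentile in at least 3 arrays were kept (20066), values were taken as log2(intensity + 15), the rounded 20th percentile, and a gene was represented by its kept probe set with the highest mean (12560 genes). limma 3.58.1 in R 4.3.3 fitted 1 mean per group to all 12 arrays. Tests were two-sided, with Benjamini-Hochberg adjustment over all genes and a threshold of 0.05, and the procedure was tested on simulated data. Stefins and cystatins received no test. The number of arrays limits the precision.

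The members and the 12 gene lists were chosen with earlier results of these data known. Named are all members, up to 3 genes with the smallest adjusted p per list and contrast, and the 3 genes most like each member; of the proteases all tested genes with an interaction are given. Promoter windows came from RefSeq (GRCm38.p6; Cstb had no entry) and were aligned with Biopython 1.88. Alternatives tried were each array left out, the replicate number as a block, probe sets of a gene averaged, no filter or one at the 60th percentile, an offset of 1, arrays centred on their medians, and quantile normalization.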

Additional observations from a re-analysis of the deposited data

Results flagged for a closer look

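The direction of the genotype difference changed between cells and lines for several members, and these differences were not tested, since the members were chosen with their values known. Every array placed Ts1Cje above B6 among cells and Ts1Cje Trib1 below B6 Trib1 among lines for Stfa3 (difference between the 2 log2 differences -2.42), Stfa2l1 (-1.99) and both Cstb probe sets (-0.44 and -0.69). For Stfa3 most of this lay in the cells, at 2.30. Its difference between the lines was small, at -0.12 ± 0.07 (standard error), and -0.05 without the third B6 Trib1 array. Stfa2l1 had 1.68 in the cells and -0.31 between the lines. For Cst3 the turn lay between lines and cells, with B6 Trib1 above B6 and Ts1Cje Trib1 below Ts1Cje on every array (-0.31).

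Among genes that were not members, limma's interaction passed for Ctsb (-0.81, adjusted p = 2.03e-06), Ctsc (-0.54, adjusted p = 1.49e-06), Ctsf (-0.26, adjusted p = 0.0499), Ctsh (-1.47, adjusted p = 2.72e-10), Ctsk (0.53, adjusted p = 0.00359) and Ctss (-1.26, adjusted p = 1.12e-08). It also passed for Ctsw (1.35, adjusted p = 1.01e-08), Ctsz (-0.41, adjusted p = 9.50e-05), Lgmn (-1.07, adjusted p = 3.98e-08), Hrg (-0.27, adjusted p = 0.00577), Camp (-2.73, adjusted p = 2.87e-11) and Ngp (-1.12, adjusted p = 1.19e-09), each on the log2 scale. Hrg was dim in every group, and Ctsf lost the call in 15 of 19 alternatives. Over all 12560 genes tested the interaction passed above 0 for 28.4% and below 0 for 20.2%.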

How the results depend on the processing

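Each count of genes past the threshold kept within 1.5 times its value under 19 alternatives. The counts ranged from 5522 to 7192 for Ts1Cje minus B6, 2057 to 2974 for Ts1Cje Trib1 minus B6 Trib1, 6579 to 9199 for B6 Trib1 minus B6, 6966 to 7942 for Ts1Cje Trib1 minus Ts1Cje and 5310 to 6847 for the interaction. Counts of the 11 proteases were 8 to 9, 6 to 7, 7 to 10, 9 to 11 and 8 to 9 in that order. Same-numbered arrays had deviations with correlations from -0.45 to 0.35, so the numbers do not pair them. With the replicate number as a block 6352, 2485, 8017, 7519 and 5818 genes passed in the same order. Of the member values under these alternatives, 467 moved by less than the spread and 8 moved beyond it, and 0 changed direction where the groups did not overlap. With an offset of 1, Stfa3 gave 2.76 for Ts1Cje minus B6, 3.51 for B6 Trib1 minus B6 and -2.89 for the interaction. The mean of the Cstb probe sets gave 0.28 for Ts1Cje minus B6 and -0.57 for the interaction. Stfa2l1, overlapping between Ts1Cje Trib1 and Ts1Cje, ranged from -0.11 to 0.02. Ctso, dim in every group, lost its fall in B6 Trib1 lines in 5 of 18 alternatives (largest adjusted p 0.121), among them without B6 replicate 1 or 2 and without B6 Trib1 replicate 1 or 3. Ctsb in Ts1Cje over B6 cells ranged from 0.21 to 0.56.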

Other observations

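Inhibitors of serine proteases were described from a list of leukocyte serpins and Slpi, which is not a serpin, and 7 of its 10 genes were measured. By limma's test 3 rose and 3 fell in B6 Trib1 lines against B6 cells, where 34.1% of all genes rose and 31.1% fell. In Ts1Cje Trib1 lines against Ts1Cje cells 4 rose and 2 fell, where 34.1% of all genes rose and 26.8% fell. In Ts1Cje against B6 cells 4 rose and 2 fell, where 23.3% of all genes rose and 29.3% fell. Between the Ts1Cje Trib1 and B6 Trib1 lines 4 rose and 1 fell, where 11.9% of all genes rose and 9.63% fell. The list was chosen with earlier results of these data known, so nothing is read from its counts. Slpi, for a secreted inhibitor of neutrophil elastase, averaged 2013 ± 82.7 in Ts1Cje Trib1, 2451 ± 117 in B6 Trib1, 1359 ± 56.7 in Ts1Cje and 903 ± 28.1 in B6 (SD, n = 3 each). Its log2 difference was 0.58 for Ts1Cje minus B6 (limma adjusted p = 6.01e-07) and -0.28 for Ts1Cje Trib1 minus B6 Trib1 (limma adjusted p = 0.000848), with an interaction of -0.86 (limma adjusted p = 4.40e-07). Serpinb1a, for an intracellular inhibitor of neutrophil serine proteases, rose by 0.65 in Ts1Cje over B6 cells (limma adjusted p = 6.34e-07) and by 1.00 in B6 Trib1 lines over B6 cells (limma adjusted p = 2.33e-09).

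Calpains are cytosolic calcium-dependent cysteine proteases, and all 8 genes of a list of calpains, their regulatory subunit Capns1 and their inhibitor calpastatin (Cast) were measured. By limma's test 4 rose and 1 fell in Ts1Cje against B6 cells, where 23.3% of all genes rose and 29.3% fell. In B6 Trib1 lines against B6 cells 2 rose and 1 fell, where 34.1% of all genes rose and 31.1% fell. In Ts1Cje Trib1 lines against Ts1Cje cells 2 rose and 3 fell, where 34.1% of all genes rose and 26.8% fell. Between the Ts1Cje Trib1 and B6 Trib1 lines 0 rose and 1 fell, where 11.9% of all genes rose and 9.63% fell. The gene that fell, Capn2, for the large subunit of m-calpain, averaged 287 ± 14.4 in Ts1Cje Trib1, 483 ± 2.65 in B6 Trib1, 961 ± 25.1 in Ts1Cje and 748 ± 40.4 in B6 (SD, n = 3 each), with a log2 difference of -0.72 between the lines (limma adjusted p = 1.05e-07). Of 6 C/EBP and myeloid factors measured, 5 fell and 1 rose in each line against cells of its genotype, where 31.1% of all genes fell in B6 Trib1 lines, 26.8% in Ts1Cje Trib1 lines and 34.1% rose in either. The 1 that rose was Cebpa in both, by 1.19 in B6 Trib1 lines (limma adjusted p = 1.33e-09) and 0.98 in Ts1Cje Trib1 lines (limma adjusted p = 6.33e-09). Of those that fell, Irf8 had log2 differences of -2.84 (limma adjusted p = 5.64e-13) and -3.49 (limma adjusted p = 3.64e-14) in the same order. Cebpd had -1.15 (limma adjusted p = 4.67e-11) and -3.15 (limma adjusted p = 1.04e-15).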
